A study of Mus musculus with 24 samples.

Results

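Interferon-stimulated genes are switched on when a cell senses interferon, and their transcripts were followed here in 2 kinds of CD4 T cell from 4 mouse tissues. A list of 41 such genes was matched by symbol to a table of 35612 genes, which gave 40 genes; Gbp5 had no matching row and was not analysed here. All 40 passed the filter on low values. The cells were regulatory T cells (Treg), which hold back immune responses under the transcription factor Foxp3, and conventional CD4 T cells without Foxp3 (Tconv). Both were sorted from spleen, blood (peripheral blood mononuclear cells, PBMC), liver and the lymph node that drains it (LDLN). This makes 8 groups of 3 pools, or 24 libraries. Every pool held cells of 3 male mice aged 5 months on the C57BL/6 background that carried the Foxp3Thy1.1 reporter, which the labels name as the marker that parted Treg from Tconv. The labels name no treatment. The gate kept live CD45+ TCRβ+ CD4+ cells without NK-1.1, CD8α or CD1d tetramer binding.

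Type I interferons bind a receptor of the subunits Ifnar1 and Ifnar2, whose kinases Jak1 and Tyk2 set off the assembly of a complex that holds Stat2 and Irf9 and binds the interferon-stimulated response element of target promoters. Interferon gamma binds a receptor of Ifngr1 and Ifngr2, acts through the gamma-activated sequence and induces Irf1 and the GTPases of the GBP and IRG families. T cells keep a low level of many of these transcripts without infection. The list covers 4 transcription factors, 4 nucleic acid sensors, 5 members of the oligoadenylate synthase (OAS) family, 10 antiviral effectors, 6 genes of the ISG15 and ubiquitin system, 7 GTPases and 4 others.

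Values are normalized counts, that is reads per gene divided by 1 size factor per library, and depth ran from 17523927 to 25398037 reads. Foxp3 was at 1402 to 2227 in the 12 Treg libraries. Of the 12 Tconv libraries, 7 held Foxp3 at 13.6 to 30.5, and 5 held it at 305 to 627, which goes against their label. These 5 were Liver Tconv 1 and 3, LDLN Tconv 3, PBMC Tconv 1 and Spleen Tconv 3, and the main counts of called genes are given below with and without them. Il2ra was also higher in these 5 (893 or more) than in the other Tconv libraries (619 or less). The sum of Foxp3, Il2ra, Ikzf2 and Ctla4 did not set them apart alike. In PBMC Tconv 1 it was 3621, above 1447 and 1051 in the other PBMC Tconv pools. In Spleen Tconv 3 it was 7541, below 15339 and 11900, and the liver Tconv pools held 4539 to 4655. Summed macrophage and neutrophil markers were highest in Liver Tconv 2 (10698 and 2346) and Spleen Treg 1 (4834 and 1400), so counts without these 2 libraries are given too. Cd3e and Cd4, which define the sorted cells, were at 20836 or more and 10356 or more in every library. Cells fewer in number and RNA lower per cell cannot be told apart in such bulk samples.

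**Figure D1:**
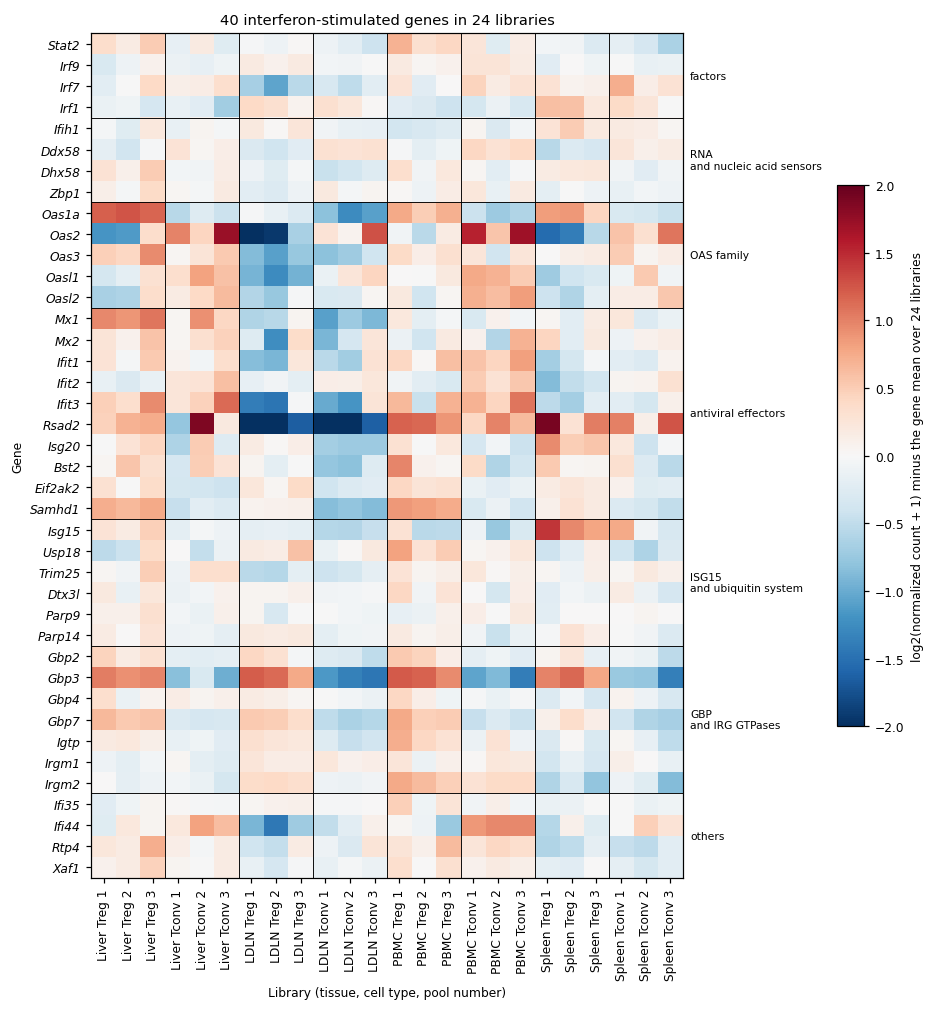
Heat map of the 40 genes (rows, by role) in 24 libraries (columns, by group and pool number), coloured by log2(normalized count + 1) minus the gene mean over all libraries, with colours saturating at the ends of the bar. Gbp3, Gbp7, Samhd1 and Oas1a are redder in the Treg columns, Oas2 in the Tconv columns, and Rsad2 is dark blue in the 6 LDLN columns.

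Per kilobase of annotated exons, Igtp had the highest mean level over the 24 libraries, at 3610 normalized counts, followed by Samhd1 at 1837, Irf1 at 1692 and Gbp7 at 1503. The lowest were Ifi44 at 21.8, Mx2 at 23.5 and Mx1 at 49.6. Gbp2, Gbp4 and Irf9 followed the first 4, and all 5 OAS genes lay in the lower part of the order. Some members share sequence with close relatives, and reads of those stretches cannot be assigned with certainty. The share of 50-base stretches found in another gene was 57.6% for Oas1a (Oas1g and Oas1b), 51.2% for Ifit3 (Ifit3b), 12.7% for Gbp7, 11.8% for Igtp and 11.6% for Rtp4. Of the 40 members, 17 overlap an exon of another annotated gene, and whether counting used strand is not given in the sources used here.

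Promoter windows from RefSeq (GRCm38.p6, 250 bases before to 50 after the gene start) were found for 30 of the 40 genes, with 36 windows in all. The core of the response element, GAAANNGAAA on either strand, was in 17 windows (47.2%), against 3.44% of all 32851 windows of the same length. The core of the gamma-activated sequence, TTCNNNGAA, was in 11 windows (30.6%), against 8.3% of all. At least 1 of the cores was found for 22 of the 30 genes. Stretches that end at the base before the RefSeq start, which can differ from that of the annotation used for counts, are printed for 8 genes, picked after their values were seen: GTPase and OAS genes higher in Treg (Gbp3, Gbp7, Gbp2, Oas1a), genes that moved with the pool number (Ifit1, Ifit3), a gene low in the lymph node (Rsad2), and Irf1, a textbook target of interferon gamma. Capitals mark the matched cores, read 5′ to 3′ on the gene's strand.
Gbp3 (chr3:142559944-142560043, plus strand): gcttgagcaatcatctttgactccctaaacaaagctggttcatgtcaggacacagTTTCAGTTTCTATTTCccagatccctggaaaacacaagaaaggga
Gbp7 (chr3:142530220-142530335, plus strand): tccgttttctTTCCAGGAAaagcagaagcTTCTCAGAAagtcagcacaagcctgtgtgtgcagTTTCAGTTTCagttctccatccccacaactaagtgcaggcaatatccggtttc
Gbp2 (chr3:142620563-142620662, plus strand): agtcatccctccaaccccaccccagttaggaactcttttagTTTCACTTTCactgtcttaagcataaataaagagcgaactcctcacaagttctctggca
Oas1a (chr5:120907526-120907625, minus strand): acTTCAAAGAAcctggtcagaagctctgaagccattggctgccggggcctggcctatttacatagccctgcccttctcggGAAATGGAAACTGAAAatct
Ifit1 (chr19:34640775-34640888, plus strand): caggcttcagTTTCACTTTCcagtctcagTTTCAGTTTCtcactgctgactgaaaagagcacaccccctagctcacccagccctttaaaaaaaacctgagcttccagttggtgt
Ifit3 (chr19:34583363-34583528, plus strand): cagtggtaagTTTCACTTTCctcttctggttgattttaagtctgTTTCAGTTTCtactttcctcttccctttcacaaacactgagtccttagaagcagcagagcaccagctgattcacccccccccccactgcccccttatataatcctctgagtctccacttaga
Rsad2 (chr12:26456453-26456582, minus strand): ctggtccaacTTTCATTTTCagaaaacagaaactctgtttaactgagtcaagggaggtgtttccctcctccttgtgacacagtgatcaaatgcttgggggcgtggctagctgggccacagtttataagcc
Irf1 (chr11:53769914-53770013, plus strand): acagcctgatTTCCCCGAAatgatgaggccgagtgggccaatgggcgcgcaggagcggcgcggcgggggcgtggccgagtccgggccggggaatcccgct
In Gbp3 and Oas1a 2 response element cores overlap in 1 run of capitals, and Ifit1 and Ifit3 each hold 2 separate ones. Gbp7 carries 1 response element core after 2 gamma-activated cores, Oas1a has a gamma-activated core further upstream, and Irf1 has a gamma-activated core alone. Among genes lower in Treg, neither core was found in the windows of Oasl1, Oasl2 and Ifi44. The one of Ddx58 starts after the gene start, Ifit2 has a gamma-activated core 241 bases upstream, and Oas2 had no window. Of genes higher in Treg, Samhd1 and Isg20 held a gamma-activated core alone. Neither core was found for Dtx3l, Irf9, Trim25 and Xaf1, which were not called between the cell types. A link between cores and direction was not tested. A match describes letters and not binding.

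The first comparison set Treg against Tconv of the same tissue. In liver 7 of the 40 genes were higher in Treg and 5 lower at an adjusted p of 0.05 (limma, Benjamini-Hochberg over 18576 genes), against 10.2% and 10.3% of all genes tested. In LDLN 10 were higher and 4 lower, against 7.83% and 5.99%. PBMC gave 9 higher and 6 lower, against 10.2% and 7.95%, and spleen 8 higher and 5 lower, against 10.1% and 8.75%. In the mean of the 4 tissues 14 rose in Treg and 7 fell, where 19.7% of all genes rose and 19.9% fell. The median log2 difference of the 40 genes was 0.15 for liver, 0.14 for LDLN, 0.11 for PBMC and 0.01 for spleen, beside 0.03, 0.00, -0.01 and -0.02 for all genes. Members were called in both directions: the same 5 genes were called higher in all 4 tissues and another 3 lower in all 4. These were Gbp3, Gbp7, Samhd1, Oas1a and Eif2ak2 (12.5% of the list, 3.56% of all genes) and Oas2, Oasl1 and Ddx58 (7.5%, 2.49% of all genes). With all libraries no member was called in opposite directions in different tissues, and among all genes tested only 0.215% were. Of the genes called in the mean but treated only by tissue below, log2 differences in the mean were 2.04 for Gbp3, 0.91 for Gbp7, 0.47 for Gbp2, 0.35 for Igtp, 0.90 for Samhd1, 0.48 for Eif2ak2, 0.59 for Isg20 and 1.21 for Oas1a. They were 0.33 for Stat2, 0.46 for Isg15 and 0.29 for Parp14, and on the lower side -1.76 for Oas2, -0.77 for Oasl1, -0.61 for Oasl2, -0.49 for Ddx58, -0.56 for Ifit2 and -0.76 for Ifi44.

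Without the 5 Tconv libraries that held Foxp3, the count in liver fell to 5 genes, all higher, with 1 Tconv pool left there, assumed to vary like the other groups. That pool is Liver Tconv 2, the library highest in macrophage, neutrophil, NK cell and erythroid markers, so these liver values compare Treg with that library alone. The 7 lost were Stat2 (0.16, adjusted p = 0.638), Ddx58 (-0.24, adjusted p = 0.369), Oas2 (-1.09, adjusted p = 0.313), Oasl1 (-0.88, adjusted p = 0.07), Oasl2 (-0.69, adjusted p = 0.249), Ifit2 and Gbp2. The count was 12 in LDLN (9 higher), 12 in PBMC (9 higher), 11 in spleen (5 higher) and 20 in the mean of the tissues (14 higher). Calls over all genes fell as well, from 2568 to 2012 in LDLN, 3377 to 2775 in PBMC and 3501 to 2813 in spleen. They also fell in liver, so fewer calls were not limited to the members. Lost were Parp14 and Ifi44 in LDLN, Oas2, Oasl1, Oasl2 and Igtp in PBMC, and Dhx58, Oasl2, Eif2ak2 and Isg15 in spleen (adjusted p from 0.0578 to 0.187). Called then, but not with all libraries, were Bst2 in PBMC (0.85, adjusted p = 0.0271), Usp18 in the mean (0.34, 0.0411), and Irgm1 and Irgm2 in spleen. Without Liver Tconv 2 and Spleen Treg 1 the count was 12 in liver, 14 in LDLN, 16 in PBMC, 8 in spleen and 21 in the mean. All genes called were then 3993, 2572, 3410, 2489 and 7201, beside 3808, 2568, 3377, 3501 and 7351 with all libraries. Calls absent with all libraries were Mx1 in liver (0.74, adjusted p = 0.0154) and Isg20 in liver (0.67, 0.00564) and PBMC (0.44, 0.0413). Calls that held under every alternative run were 5 of 12 in liver, 11 of 14 in LDLN, 9 of 15 in PBMC, 7 of 13 in spleen and 19 of 21 in the mean of the tissues. Gbp3, Gbp7, Samhd1 and Oas1a were among them in each tissue.

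**Figure D2:**
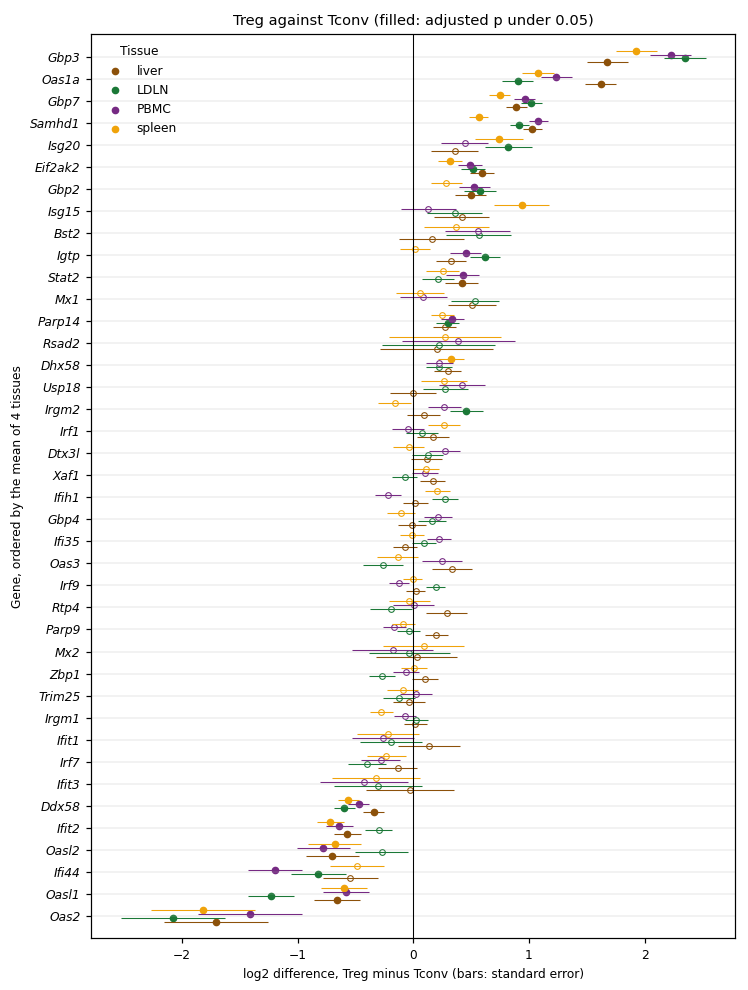
Log2 difference of Treg minus Tconv (x axis, bars are standard errors) for the 40 genes (y axis, ordered by the mean of 4 tissues), 1 colour per tissue, filled where the adjusted p is under 0.05. Gbp3 lies between 1.68 and 2.35 and Oas2 between -2.08 and -1.41.

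Guanylate-binding proteins are large GTPases that attack membranes around intracellular microbes, and Gbp3 (chromosome 3, 142560026 to 142573209 on GRCm38) differed most. Gbp3 in Treg was 3151, 2936 and 3063 in liver, 3589, 3399.7 and 2629 in LDLN, 3633, 3525 and 2995 in PBMC and 3097, 3431 and 2660.1 in spleen. In Tconv it was 874, 1259 and 786 in liver, 699, 609 and 569 in LDLN, 746, 841 and 597 in PBMC and 934, 913 and 600.1 in spleen. Every Treg pool lay above every Tconv pool, by log2 differences of 1.68 ± 0.18 for liver, 2.35 ± 0.18 for LDLN, 2.22 ± 0.18 for PBMC and 1.93 ± 0.18 for spleen (adjusted p at most 7.97e-07, limma).

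Gbp7, its neighbour on chromosome 3, 142530342 to 142550149 on GRCm38, had a higher level and a smaller difference. Treg pools held 12541, 11458 and 11826 in liver, 11448, 11265 and 10179 in LDLN, 13493, 11155 and 11334 in PBMC and 8545, 10169.5 and 8763 in spleen. Tconv pools held 6611, 6338 and 6359 in liver, 5628, 5163 and 5404 in LDLN, 5825, 6619 and 5949 in PBMC and 6101, 5241 and 5033 in spleen. The lowest Treg pool of a tissue was above the highest Tconv pool in all 4, with log2 differences of 0.89 ± 0.09, 1.02 ± 0.09, 0.96 ± 0.09 and 0.75 ± 0.09 in the same order (adjusted p from 4.11e-08 to 3.96e-06).

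Gbp2, another gene of the cluster, was called in 3 tissues. Its Treg values were 4302, 3526 and 3916 in liver, 4236, 3910.5 and 3069 in LDLN, 4549, 4298 and 3462 in PBMC and 3300.0, 3747 and 2831 in spleen, and its Tconv values 2770.3, 2748 and 2786 in liver, 2647, 2594 and 2228 in LDLN, 2795, 2982 and 2709 in PBMC and 3022, 2884 and 2212 in spleen. Log2 differences were 0.50 ± 0.13 in liver (adjusted p = 0.0111), 0.58 ± 0.13 in LDLN (0.00453) and 0.53 ± 0.13 in PBMC (0.00766). In spleen, where the pools of both cell types overlapped, it was 0.29 ± 0.13 (0.153). The liver call was lost without Liver Treg 1 (log2 difference 0.42, adjusted p = 0.0616), and without the Foxp3-holding Tconv libraries (0.51, adjusted p = 0.118).

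Igtp, an IRG GTPase also known as Irgm3, was higher in Treg of LDLN and PBMC. Treg values were 8049, 8241 and 7766 in liver, 8899, 8440.5 and 8254 in LDLN, 11791, 9558 and 8699.6 in PBMC and 5845, 7262 and 5757 in spleen. Tconv values were 6419, 6708 and 6083 in liver, 5982, 5198 and 5492 in LDLN, 6598, 8680.2 and 6682 in PBMC and 7353, 6379.6 and 5028 in spleen. The log2 difference was 0.62 ± 0.13 in LDLN (adjusted p = 0.00192), 0.45 ± 0.13 in PBMC (0.0181), 0.33 ± 0.13 in liver (0.0853) and 0.02 ± 0.13 in spleen (0.95). The PBMC call was lost without PBMC Treg 1 or PBMC Tconv 1 or 3 (adjusted p from 0.0835 to 0.108).

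Irgm1 and Irgm2 regulate the effector GTPases of the IRG family. Irgm1 in Treg was 3879, 3610.1 and 3986 in liver, 4898, 4576 and 4575 in LDLN, 4917, 3834 and 4455 in PBMC and 3234, 3726 and 3288 in spleen, and in Tconv 4249, 3643 and 3474 in liver, 4862, 4403 and 4531 in LDLN, 4222, 4879 and 4734 in PBMC and 4523, 4155 and 3745 in spleen. It passed the test in none of the 4 tissues, with log2 differences from -0.28 in spleen (adjusted p = 0.0541) to 0.03 in LDLN (0.919). Irgm2 rose in LDLN Treg, where 2565, 2622 and 2512 stood against 1870.1, 1842 and 1897 (0.46 ± 0.14, adjusted p = 0.0351). That call was lost without LDLN Treg 1, 2 or 3 or LDLN Tconv 1, 2 or 3 (adjusted p from 0.0692 to 0.103). Gbp4 ranged from 6395 to 10712 over all libraries and was called in no tissue. Of the 7 GTPases, 3 were higher in Treg for liver, 5 for LDLN, 4 for PBMC and 2 for spleen, against 10.2%, 7.83%, 10.2% and 10.1% of all genes, and none was called lower. Without the Foxp3-holding Tconv libraries 2, 5, 3 and 2 were higher, and in spleen Irgm1 (-0.35 ± 0.11, adjusted p = 0.0343) and Irgm2 (-0.39 ± 0.12, 0.0347) were called lower in Treg.

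**Figure D3:**
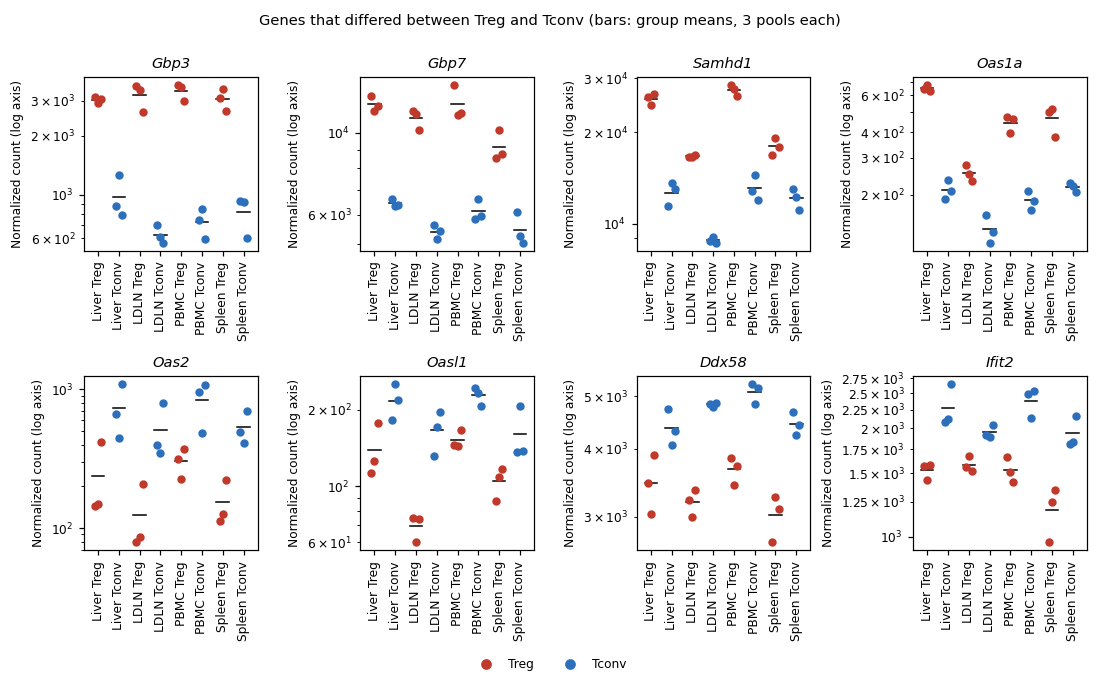
Normalized counts (log axis) of 8 genes in each library, Treg in red and Tconv in blue, with bars at group means of 3 pools. In all 4 tissues the red points of Gbp3, Gbp7, Samhd1 and Oas1a lie above the blue ones, and those of Oas2, Oasl1 and Ddx58 below.

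Among the antiviral effectors, Samhd1, which depletes the nucleotides that reverse transcription needs, was the most abundant member in raw counts and rose in Treg of every tissue. Treg values were 26085, 24485 and 26632 in liver, 16503, 16575 and 16781 in LDLN, 28627, 27771 and 26224 in PBMC and 16784, 19114 and 17874 in spleen. Tconv values were 11394, 13561 and 12986 in liver, 8741, 9059 and 8644 in LDLN, 12773, 14412 and 11980.2 in PBMC and 12985, 12260.4 and 11123 in spleen. No Treg pool of a tissue reached down to its Tconv pools, and the log2 difference was 1.03 ± 0.08, 0.92 ± 0.08, 1.08 ± 0.08 and 0.56 ± 0.08 in liver, LDLN, PBMC and spleen (adjusted p from 5.4e-09 to 3.92e-05).

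Eif2ak2 encodes PKR, the kinase that stops translation on double-stranded RNA. In Treg it was 1424, 1149 and 1491 in liver, 1350.4, 1188 and 1498 in LDLN, 1542, 1374 and 1432 in PBMC and 1288, 1367 and 1313 in spleen. Tconv pools gave 907, 899 and 869 in liver, 871, 957 and 985 in LDLN, 1049, 988 and 1058 in PBMC and 1219, 973 and 1000.2 in spleen. Its pools did not overlap in any tissue, with log2 differences of 0.59 ± 0.10, 0.52 ± 0.10, 0.49 ± 0.10 and 0.32 ± 0.10 (adjusted p from 0.000257 to 0.0346). The spleen call was lost without Spleen Treg 1, 2 or 3 or Spleen Tconv 2 or 3 (adjusted p from 0.0687 to 0.13).

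Isg20, an exonuclease that degrades RNA, was called higher in Treg of LDLN and spleen. The Treg pools gave 686, 839.5 and 936 in liver, 776, 706 and 758 in LDLN, 857, 685 and 801 in PBMC and 1339.7, 978 and 1020.5 in spleen. The Tconv pools gave 450.5, 981 and 580.2 in liver, 432, 416 and 416 in LDLN, 547, 665 and 514 in PBMC and 801, 522 and 682 in spleen, with Liver Tconv 2, the library richest in macrophage markers, far above its 2 companions. Log2 differences were 0.82 ± 0.21 in LDLN (adjusted p = 0.00773) and 0.74 ± 0.21 in spleen (0.0135). The spleen call was lost without Spleen Treg 1 or Spleen Tconv 2 (adjusted p from 0.0767 to 0.0882).

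The Ifit genes encode proteins that bind the 5′ ends of foreign RNA, and 1 of the 3 members was called in single tissues. Ifit2 was lower in Treg, at 1576, 1434 and 1580.0 in liver, 1561, 1676 and 1522 in LDLN, 1666, 1513 and 1419 in PBMC and 965, 1247 and 1351 in spleen. Tconv held 2076, 2122 and 2649.9 in liver, 1915, 1897 and 2040.2 in LDLN, 2486, 2142 and 2538 in PBMC and 1811, 1837 and 2167 in spleen. The groups did not overlap in any tissue, and log2 differences were -0.57 ± 0.12 for liver (adjusted p = 0.00116), -0.30 ± 0.12 for LDLN (0.101), -0.64 ± 0.12 for PBMC (0.000396) and -0.72 ± 0.12 for spleen (0.000133). With the pool number as a block within each tissue the LDLN difference passed (adjusted p = 0.0461). In liver the call was lost without the Tconv libraries that held Foxp3 (-0.47, adjusted p = 0.086).

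Ifit1 in Treg was 1283, 1039 and 1531 in liver, 591, 564 and 1245 in LDLN, 1414, 1081 and 1615 in PBMC and 662, 835 and 1039 in spleen. Tconv values were 1122, 1028 and 1339.9 in liver, 736, 654 and 1294 in LDLN, 1578, 1428 and 1884 in PBMC and 921, 884 and 1114 in spleen. Ifit1 passed in no tissue, with log2 differences from -0.26 in PBMC to 0.13 in liver (adjusted p from 0.588 to 0.763). Ifit3 gave 422, 381 and 583 in liver, 116, 109.7 and 298 in LDLN, 472, 223 and 492 in PBMC and 209, 188 and 259.9 in spleen in Treg. Its Tconv pools gave 359, 415 and 664 in liver, 150.2, 132 and 361 in LDLN, 489.8, 406 and 634 in PBMC and 261, 238 and 323 in spleen. The Ifit3 pools of Treg and Tconv overlapped in every tissue, and its log2 differences were below 0 in all 4 without a call, from -0.43 in PBMC to -0.03 in liver (adjusted p from 0.522 to 0.971).

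Mx1 and Mx2 encode dynamin-like GTPases, which many laboratory mouse strains carry as defective alleles. Mx1 in Treg was 341, 320.5 and 366 in liver, 114, 119 and 180.0 in LDLN, 202, 152 and 170.1 in PBMC and 178, 150.4 and 195 in spleen. The Tconv pools held 179, 330.4 and 233 in liver, 81.2, 104 and 93.3 in LDLN, 141, 185 and 168 in PBMC and 204, 143 and 159 in spleen. Its log2 difference was 0.51 ± 0.21 for liver (adjusted p = 0.0872), 0.54 ± 0.21 for LDLN (0.0968), 0.09 ± 0.21 for PBMC (0.839) and 0.06 ± 0.21 for spleen (0.896). The mean of the 4 tissues passed (0.30 ± 0.10, adjusted p = 0.0256), but not without the Foxp3-holding Tconv libraries (0.15, adjusted p = 0.362), nor without Liver Tconv 1, LDLN Treg 3 or PBMC Tconv 1 (adjusted p from 0.0508 to 0.0552). Mx2 ranged from 33.9 to 133 and was called in no tissue.

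Rsad2, the radical enzyme viperin, and Bst2, which tethers budding virions, were called in no single tissue. For Rsad2 the log2 difference lay between 0.20 in liver and 0.39 in PBMC with a standard error of 0.49 (adjusted p from 0.676 to 0.859). Bst2 passed in the mean of the 4 tissues (0.41 ± 0.14, adjusted p = 0.0226), and with the pool number as a block it passed in LDLN (0.57 ± 0.12, adjusted p = 0.005). Bst2 spanned 223 to 774 over the libraries.

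The OAS enzymes make short 2′-5′ linked adenylates that activate RNase L when double-stranded RNA is present, and their genes moved in opposite directions. Oas1a (chromosome 5, 120896256 to 120907521 on GRCm38) was higher in Treg, at 642, 676 and 629.5 in liver, 278, 252 and 232 in LDLN, 474, 393 and 461 in PBMC and 501, 516 and 379 in spleen. Tconv held 190.4, 235 and 208 in liver, 159, 117 and 132 in LDLN, 208, 169 and 185 in PBMC and 226, 220.4 and 206 in spleen. The groups were apart in all 4 tissues, with log2 differences of 1.62 ± 0.14, 0.90 ± 0.14, 1.24 ± 0.14 and 1.08 ± 0.14 (adjusted p from 2.92e-08 to 5.48e-05). Its near copy Oas1g, which shares most of its sequence, was far lower, with group means from 3.81 to 26.3. The mean of 4 tissues for Oas1g was 1.17 ± 0.20 (adjusted p = 4.36e-05).

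Oas2, which lies in the same cluster on chromosome 5, 120730333 to 120749853 on GRCm38, went the other way. Its Treg pools held 145, 150.2 and 419 in liver, 78.7, 85.8 and 209 in LDLN, 313, 226 and 369.9 in PBMC and 113, 126 and 223 in spleen. Its Tconv pools held 659.7, 446 and 1089.7 in liver, 397, 346 and 798 in LDLN, 964, 483 and 1071 in PBMC and 492, 413 and 697 in spleen. Each tissue's Treg pools stayed below its Tconv pools, and log2 differences were -1.71 ± 0.45, -2.08 ± 0.45, -1.41 ± 0.45 and -1.82 ± 0.45 (adjusted p from 0.00238 to 0.0317). The liver call was lost without Liver Treg 1 or 2 or Liver Tconv 3 (adjusted p from 0.0555 to 0.0675), and the PBMC call without PBMC Treg 1 or 2 or PBMC Tconv 1 or 3 (adjusted p from 0.0576 to 0.131). With the block within tissue the LDLN difference had a standard error of 0.16 (adjusted p = 3.33e-07).

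Oasl1, an OAS-like protein without synthase activity that represses translation of Irf7, was also lower in Treg. Treg values were 113, 126 and 178 in liver, 74.9, 59.9 and 74.3 in LDLN, 146, 144 and 166 in PBMC and 87.6, 109 and 117 in spleen. Tconv values were 182, 253 and 218 in liver, 131, 171 and 196 in LDLN, 244, 234 and 207 in PBMC and 136, 208 and 138 in spleen. Its pools did not overlap in any tissue, and the difference was largest in LDLN (-1.23 ± 0.20, adjusted p = 0.00012), beside -0.66 ± 0.20, -0.58 ± 0.20 and -0.60 ± 0.20 in liver, PBMC and spleen (adjusted p from 0.0209 to 0.0446). The PBMC call was lost without PBMC Treg 1, 2 or 3 or PBMC Tconv 1, 2 or 3 (adjusted p from 0.0559 to 0.13). In liver the call was lost without Liver Treg 1 or 2 or Liver Tconv 2 or 3 (adjusted p from 0.0629 to 0.113), and the spleen call without Spleen Treg 1 or 2 or Spleen Tconv 2 (adjusted p from 0.0684 to 0.198).

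Oasl2 in Treg was 240.3, 247 and 482 in liver, 252, 222 and 371 in LDLN, 434, 286 and 386 in PBMC and 284, 249.7 and 330.1 in spleen. In Tconv it was 424, 496 and 583 in liver, 304, 310.4 and 389 in LDLN, 621, 577 and 674 in PBMC and 419, 421 and 548 in spleen. It was lower in Treg of liver (-0.70 ± 0.23, adjusted p = 0.0343), PBMC (-0.78 ± 0.23, 0.0206) and spleen (-0.68 ± 0.23, 0.0423), with -0.27 ± 0.23 in LDLN (0.551). Liver pools overlapped through Liver Treg 3. The liver call was lost without Liver Treg 1 or 2 or Liver Tconv 2 or 3 (adjusted p from 0.0605 to 0.175). The PBMC call was lost without PBMC Treg 2 or PBMC Tconv 1 or 3 (adjusted p from 0.0532 to 0.12), and the spleen call without Spleen Treg 1 or 2 or Spleen Tconv 1, 2 or 3 (adjusted p from 0.055 to 0.165). Oas3, the largest OAS enzyme, was called in no tissue for this contrast, with log2 differences from -0.26 in LDLN to 0.34 in liver.

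Of the nucleic acid sensors, Ddx58, which encodes the RNA helicase RIG-I, was lower in Treg of all 4 tissues. Treg values were 3467, 3032 and 3894 in liver, 3224, 2995 and 3368 in LDLN, 3854, 3434 and 3717 in PBMC and 2693, 3269 and 3108 in spleen. Tconv values were 4741, 4058 and 4319.8 in liver, 4843, 4777 and 4855 in LDLN, 5255, 4832 and 5180.1 in PBMC and 4682, 4237 and 4426 in spleen. The pools did not overlap within a tissue, with log2 differences of -0.34 ± 0.09, -0.60 ± 0.09, -0.47 ± 0.09 and -0.56 ± 0.09 (adjusted p from 6.47e-05 to 0.00976). In liver the call was lost without Liver Treg 2 or Liver Tconv 1 (adjusted p from 0.0606 to 0.0843).

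Dhx58, the related helicase LGP2 that modulates RIG-I signalling, went in the opposite direction. It passed in spleen, at 692, 714 and 723 in Treg and 584, 527 and 586 in Tconv (0.33 ± 0.11, adjusted p = 0.0484), and in the mean of 4 tissues (0.27 ± 0.06, 0.000606). The spleen call was lost without Spleen Treg 1, 2 or 3 or Spleen Tconv 1, 2 or 3 (adjusted p from 0.0708 to 0.146). With the block within tissue the liver difference passed (0.30 ± 0.09, adjusted p = 0.0236). Ifih1, the sensor MDA5, ranged from 1090.4 to 1999, and Zbp1, which binds Z-form nucleic acid, from 927 to 1467. Both were called in no tissue, while Zbp1 in LDLN passed under the block (-0.27 ± 0.08, adjusted p = 0.0383).

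Of the 4 transcription factors in the list, Stat2 alone passed the Treg against Tconv test within single tissues without the block. Stat2, a subunit of the complex that binds the response element, was 2442, 2149 and 2728 in liver, 1882, 1785 and 1954 in LDLN, 3086, 2395 and 2544 in PBMC and 1852, 1826 and 1589.5 in spleen in Treg. Tconv held 1708, 2167 and 1620.1 in liver, 1777, 1646 and 1439 in LDLN, 2255, 1625 and 2114 in PBMC and 1684, 1518 and 1235 in spleen. It was higher in Treg of liver (0.42 ± 0.14, adjusted p = 0.0401), where the pools overlapped, and PBMC (0.43 ± 0.14, 0.0397). The liver call was lost without Liver Treg 1 or 3 or Liver Tconv 1 or 3 (adjusted p from 0.094 to 0.179), and the PBMC call without PBMC Treg 1 or 3 or PBMC Tconv 2 or 3 (adjusted p from 0.053 to 0.223).

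Irf9, the DNA-binding subunit of that complex, was 3449, 3947 and 4511 in liver, 4810.0, 4491 and 4792 in LDLN, 4803, 4335 and 4521 in PBMC and 3634, 4254 and 3992 in spleen in Treg. Tconv held 3893, 3772 and 4005 in liver, 4096, 4024 and 4205 in LDLN, 5054, 5062 and 4756 in PBMC and 4214, 3842 and 3865 in spleen. Its log2 differences ran from -0.12 to 0.19 and none passed (adjusted p from 0.15 to 0.97). Irf7, which amplifies type I interferon production, gave 1828, 2119.5 and 2805 in liver, 1347, 1023 and 1459 in LDLN, 2553, 1809 and 2131 in PBMC and 2588, 2227 and 2279 in spleen in Treg. Tconv pools gave 2296, 2344 and 2669.9 in liver, 1704, 1485 and 1828 in LDLN, 2881, 2370.1 and 2588 in PBMC and 3522, 2339 and 2582 in spleen. It passed in the mean of 4 tissues (-0.26 ± 0.08, adjusted p = 0.0154), lower in Treg, but not without the Foxp3-holding Tconv libraries (-0.23, adjusted p = 0.121). In LDLN it passed under the block within tissue (-0.40 ± 0.09, adjusted p = 0.00755).

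Irf1 was 5979, 6160.0 and 5204 in liver, 8620.5, 8184 and 6913 in LDLN, 5608, 5379.6 and 4904 in PBMC and 9907, 9838 and 7605 in spleen in Treg. It was 5916, 5603 and 4032 in liver, 8173, 7636 and 6679.5 in LDLN, 5115, 6047 and 5241 in PBMC and 8517, 7731 and 6498 in spleen in Tconv. Its pools overlapped in every tissue and its log2 difference ran from -0.04 in PBMC to 0.26 in spleen (adjusted p from 0.208 to 0.886).

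Isg15 is a ubiquitin-like protein that is joined to newly made proteins, and Usp18 removes it and also dampens the type I receptor. Isg15 in Treg was 323, 298 and 370.0 in liver, 236, 236 and 231 in LDLN, 325, 183 and 185 in PBMC and 721, 517 and 459.6 in spleen. Tconv pools gave 232, 258 and 249 in liver, 179, 178 and 193 in LDLN, 249, 157 and 215 in PBMC and 449, 253 and 214 in spleen. It rose in spleen Treg (0.94 ± 0.24, adjusted p = 0.00756), with no overlap between the pools. That call was lost without Spleen Treg 1 or Spleen Tconv 3 (adjusted p from 0.0569 to 0.0603). Spleen Treg 1 is the spleen pool with the most macrophage markers. Liver gave 0.42 ± 0.24 (adjusted p = 0.233, and 0.0342 under the block).

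Usp18 in Treg was 1405, 1489.6 and 2604 in liver, 2286, 2224 and 3042 in LDLN, 3539, 2473 and 2871 in PBMC and 1516, 1734 and 2217 in spleen. Tconv values were 2036, 1443 and 1865 in liver, 1842, 2047 and 2297 in LDLN, 2077, 2135 and 2357 in PBMC and 1537, 1318 and 1649 in spleen. No tissue passed, and the log2 difference was at most 0.42, in PBMC (adjusted p from 0.161 to 0.994). Parp14, a mono-ADP-ribosyltransferase, was higher in Treg of LDLN (0.30 ± 0.10, adjusted p = 0.0488) and PBMC (0.34 ± 0.10, 0.0202), and in liver under the block (adjusted p = 0.0493). Its LDLN call was lost without LDLN Treg 1, 2 or 3 or LDLN Tconv 1, 2 or 3 (adjusted p from 0.0795 to 0.181), and its PBMC call without PBMC Treg 1 or PBMC Tconv 2 (adjusted p from 0.0674 to 0.139). The ubiquitin ligases Trim25 (792 to 1644 over the libraries) and Dtx3l (2723 to 4643) and the Dtx3l partner Parp9 (2159.8 to 3338) were called in no tissue.

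Of the 4 remaining genes, Ifi44, an antiviral protein, was lower in Treg. Its Treg pools held 103, 142 and 127 in liver, 64.5, 44.9 and 74.3 in LDLN, 126, 114 and 72.7 in PBMC and 82.3, 132 and 103 in spleen. Its Tconv pools held 143, 216 and 188 in liver, 87.3, 105 and 131 in LDLN, 224, 240.4 and 238 in PBMC and 122, 171 and 149 in spleen. It passed in LDLN (-0.82 ± 0.23, adjusted p = 0.0205) and PBMC (-1.20 ± 0.23, 0.000807), with no overlap in either, and in liver under the block (-0.54 ± 0.18, adjusted p = 0.0408). The LDLN call was lost without LDLN Treg 2 or LDLN Tconv 2 or 3 (adjusted p from 0.0522 to 0.14). Ifi35 (1147 to 1855), Rtp4 (822 to 2065) and Xaf1 (699 to 1228) were called in no tissue.

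The second comparison set liver against the equally weighted mean of LDLN, PBMC and spleen. In Treg 8 of 40 genes were higher in liver and 1 lower, against 9.66% and 10.1% of all genes, and the median log2 difference was 0.15 (all genes 0.03). Mx1 differed most: liver Treg held 341, 320.5 and 366, and no other Treg pool exceeded 202 (1.10 ± 0.17, adjusted p = 9.44e-05). Oas1a (0.80 ± 0.11, 3.13e-05) and Oas3 (0.78 ± 0.14, 0.000524) also had every liver Treg pool above every other Treg pool. Oas3 in liver Treg was 1237, 1175 and 1705, and the other 9 Treg pools ranged from 417 to 1158. Samhd1 (0.35 ± 0.07, 0.000836) lay above every LDLN and spleen pool and overlapped the PBMC pools. Its highest group mean was in PBMC Treg (27540) and not in liver Treg. These 4 calls held under every alternative run. The count was 7 without the Foxp3-holding Tconv libraries and 7 without Liver Tconv 2 and Spleen Treg 1. The matching counts over all genes are not given, so a fall particular to the members is not shown.

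The other calls in liver Treg were less firm. They were Ifit3 (0.96 ± 0.31, adjusted p = 0.0333), Rtp4 (0.48 ± 0.15, 0.0237), Xaf1 (0.27 ± 0.09, 0.041) and Parp9 (0.24 ± 0.08, 0.0427), and Irf1 on the lower side (-0.32 ± 0.11, 0.0488). Rtp4, a chaperone of receptor transport, was 1465, 1406 and 2065 in liver, 947, 899 and 1406 in LDLN, 1502, 1349.9 and 1933 in PBMC and 822, 881 and 1106 in spleen in Treg, and its call was lost without Liver Treg 3 (log2 difference 0.31, adjusted p = 0.181). The Tconv pools of Rtp4 held 1370.4, 1213 and 1406 in liver, 1172, 1024 and 1494 in LDLN, 1477, 1669 and 1581 in PBMC and 914, 871 and 1078 in spleen. The Ifit3 call was lost without Liver Treg 1, 2 or 3, LDLN Treg 1 or 2, PBMC Treg 2 or Spleen Treg 2 (adjusted p from 0.0507 to 0.14). For Irf1 it was lost without Liver Treg 1, 2 or 3, LDLN Treg 1 or 2, PBMC Treg 1 or 2 or Spleen Treg 1 or 2 (adjusted p from 0.0628 to 0.192). For Parp9 it was lost without Liver Treg 1, 2 or 3, LDLN Treg 2, PBMC Treg 1 or 2 or Spleen Treg 1 (adjusted p from 0.0597 to 0.213), and for Xaf1 without Liver Treg 2 or 3, LDLN Treg 1 or 2, PBMC Treg 2 or Spleen Treg 1 or 2 (adjusted p from 0.0531 to 0.27). Ifit3b, the near copy of Ifit3, was higher in liver Treg as well (1.30 ± 0.30, 0.00436). Under a block for the pool number across tissues 14 members were called, and with no variance trend 5. All genes called were 4159 and 3454 under these settings, beside 3662 in the main fit.

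In Tconv only Mx1 was called in liver (0.81 ± 0.17, adjusted p = 0.00774), so 1 of 40 was higher and 0 lower, against 2.58% and 0.598% of all genes. At an unadjusted p of 0.05, 9 members passed (22.5%, against 14.2% of all genes). The call rested on Liver Tconv 2, at 330.4: the call was lost without Liver Tconv 2 (log2 difference 0.58, adjusted p = 0.183). That library also held summed B cell markers of 22926 and NK cell markers of 6456, the latter the highest of the 24, and their part in Mx1 was not tested. Without the 5 Foxp3-holding libraries Liver Tconv 2 is the only liver Tconv pool left, and 4 members were called (Mx1, Rsad2, Gbp3 and Isg20, 10% against 7.27% of all genes). Without Liver Tconv 2 and Spleen Treg 1 none was called, and leaving out 1 library at a time gave 0 to 5.

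Whether the liver effect differs between Treg and Tconv was tested as an interaction, which called 0 of 40 members by limma and 0 by edgeR, with 1 by DESeq2 and 0.748% of all genes by limma. At an unadjusted p of 0.05 limma passed 3 members (7.5%, against 11.8% of all genes). For Oas1a the liver effect was 0.80 in Treg and 0.25 in Tconv, a difference of 0.55 ± 0.16 (adjusted p = 0.118). For Mx1 the difference was 0.28 ± 0.24 (0.673). A liver difference called in one cell type and not in the other is therefore not shown to differ between them.

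**Figure D4:**
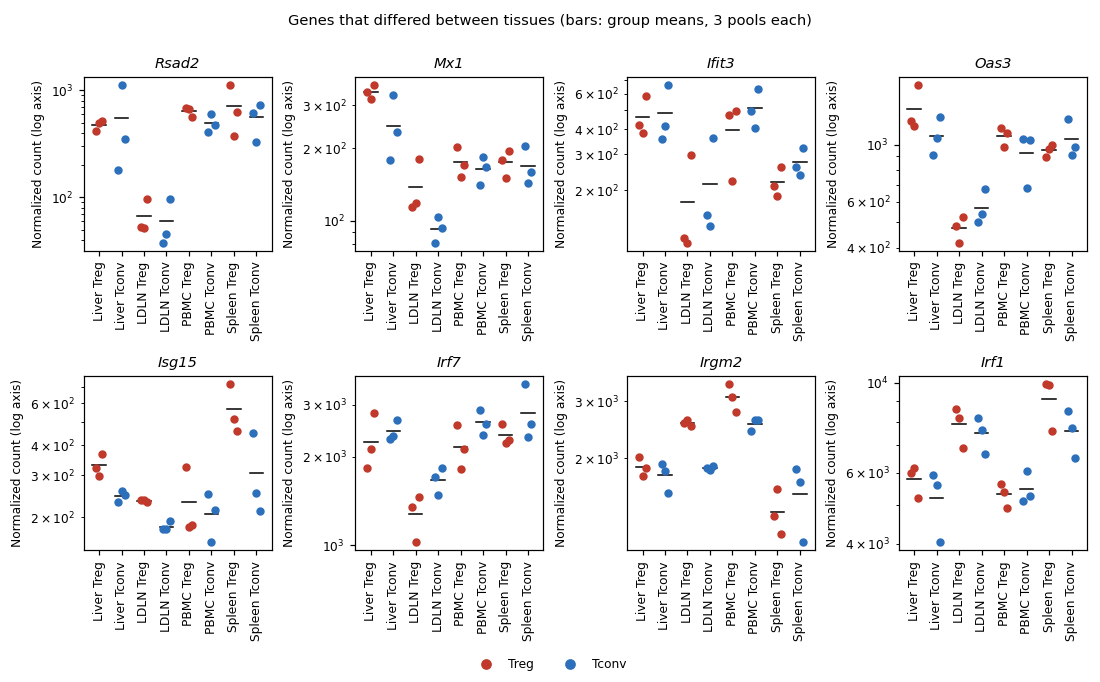
Normalized counts (log axis) of 8 genes in each library by tissue and cell type, Treg in red and Tconv in blue, with bars at group means of 3 pools. Rsad2, Oas3 and Irf7 are lowest in LDLN in both cell types, Mx1 has its highest group means in liver, and Irgm2 its lowest in spleen.

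The 3 lymphoid tissues were compared with an F-test, which called 27 of 40 genes in Treg and 16 in Tconv, against 38.8% and 27.4% of all genes tested. The median span between the highest and lowest tissue was 0.54 log2 in Treg and 0.43 in Tconv, beside 0.53 and 0.46 for all genes. Of these calls, 16 in Treg and 8 in Tconv held under every alternative run. Without the Foxp3-holding libraries 25 and 14 were called, and without Liver Tconv 2 and Spleen Treg 1 21 and 17. Counts over all genes are not given for these 2 settings, so the changes are not shown to be particular to the members. All 4 factors were called in Treg, and 4 of 5 OAS genes. In both cell types the calls that held included Rsad2, Oas1a, Oas3, Irf7, Irgm2 and Samhd1.

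Rsad2 spanned most, 3.29 log2 in Treg (adjusted p = 1.32e-05) and 3.24 in Tconv (2.88e-05). Its Treg values were 419, 494 and 513 in liver, 53.1, 51.9 and 97.1 in LDLN, 689, 674 and 566 in PBMC and 1134, 371 and 624 in spleen. Its Tconv values were 179, 1118 and 348 in liver, 37.5, 45.7 and 97.3 in LDLN, 406, 607 and 474 in PBMC and 613, 330.2 and 733 in spleen. The 6 LDLN libraries lay at 37.5 to 97.3 and the others at 179 to 1134, with the highest in Spleen Treg 1 and Liver Tconv 2. Some sums of markers of other cells followed this order and others did not. Summed neutrophil markers were 68 to 135 in LDLN, 216 to 2346 in liver and 160 to 683 in PBMC. In spleen Treg they were 181 to 1400, and in spleen Tconv 86 to 148, which overlapped LDLN. Like Rsad2 they were highest in Liver Tconv 2 and Spleen Treg 1. Summed erythroid markers were 318 to 764 in LDLN libraries and at least 5781 elsewhere. Summed platelet markers were 25 to 46 in LDLN and 288 to 917 in PBMC, but 31 to 107 in liver, which overlapped LDLN. Summed dendritic cell markers were higher in LDLN (668 to 857) than in spleen Tconv (454 to 605). Summed B cell markers overlapped between LDLN (1222 to 3759) and spleen Tconv (2701 to 4460). Summed macrophage markers (12 of 12 found, at most 5 at 0 in a library) were 164 to 343 in LDLN, 255 to 10698 in liver, 2293 to 2736 in PBMC Treg, 363 to 655 in PBMC Tconv and at least 1066 in spleen. Their part in the Rsad2 values was not tested.

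Oas3 and Irf7 were lowest in LDLN as well. Oas3 in Tconv was 908, 1063 and 1275 in liver, 502, 538 and 673 in LDLN, 1050.1, 680.0 and 1044 in PBMC and 1258, 915 and 983 in spleen, and its Treg values in LDLN were 486, 417 and 523. Spleen exceeded LDLN by 1.00 in Treg (adjusted p = 0.000181) and 0.88 in Tconv (0.00086). Irf7 differed by 0.90 (0.000329) and 0.73 (0.00276) between the same tissues. For Ifit3 PBMC exceeded LDLN by 1.25 in Treg (0.0273) and 1.37 in Tconv (0.033). The F-test call of Ifit3 in Treg was lost without LDLN Treg 1 or 2 or PBMC Treg 1 or 3 (adjusted p from 0.111 to 0.139), and in Tconv without LDLN Tconv 1 or 2 or PBMC Tconv 1 or 3 (adjusted p from 0.0629 to 0.11).

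For other genes spleen stood apart in Treg, and for Irf1 PBMC did. Isg15 in spleen Treg exceeded PBMC Treg by 1.32 (adjusted p = 0.000253) and LDLN Treg by 1.24 (0.000465). Irgm2 was lowest in spleen, at 1319, 1602 and 1159 in Treg against 3390.5, 3092 and 2786 in PBMC (1.19, adjusted p = 2.14e-06). Tconv pools held 1856, 1685 and 1095 in spleen against 2430.2, 2619 and 2630.0 in PBMC (0.76, 0.000481). Spleen minus LDLN for Irgm2 was -0.93 in Treg (adjusted p = 4.64e-05) and -0.31 in Tconv (0.132), the latter not called. Igtp in Treg followed, with PBMC above spleen by 0.67 (0.000571). For Irf1 the log2 difference of PBMC minus spleen was -0.77 in Treg (0.000248) and -0.47 in Tconv (0.0193). The Tconv call of the F-test for Irf1 was lost without PBMC Tconv 1 or 3 (adjusted p from 0.0791 to 0.0935). Values for LDLN lay nearer those of spleen, as the pools of Irf1 given above show. Spleen minus LDLN for Irf1 was 0.20 in Treg (adjusted p = 0.317) and 0.01 in Tconv (0.967).

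The remaining calls of the F-test in Treg were Stat2 (span 0.60), Irf9 (0.25), Ifih1 (0.64), Ddx58 (0.28), Dhx58 (0.33), Oas1a (0.86), Oas2 (1.39), Oasl1 (1.12), Ifit1 (0.86), Ifit2 (0.43), Samhd1 (0.73), Usp18 (0.70), Trim25 (0.58), Gbp4 (0.37), Gbp7 (0.39), Irgm1 (0.46), Ifi44 (0.78), Rtp4 (0.76) and Xaf1 (0.40). Of the 27 calls in Treg, 11 were lost under at least 1 alternative: Ddx58, Dhx58, Gbp4, Ifi44, Ifit1, Ifit2, Ifit3, Irf9, Oas2, Usp18 and Xaf1. Leaving out LDLN Treg 1, 2 or 3, PBMC Treg 1 or 3, or Spleen Treg 1, 2 or 3 each ended at least 1 of these calls, with adjusted p up to 0.257 for Irf9. In Tconv the others were Irf9 (0.32), Oas1a (0.68), Oasl2 (0.90), Mx1 (0.85), Ifit1 (0.92), Samhd1 (0.56), Trim25 (0.44), Ifi44 (1.13), Rtp4 (0.73) and Xaf1 (0.37). Xaf1 lost that call without LDLN Tconv 1, 2 or 3, PBMC Tconv 1, 2 or 3 or Spleen Tconv 1, 2 or 3 (adjusted p from 0.0504 to 0.121). Without the Foxp3-holding Tconv libraries Irf9 (0.29, adjusted p = 0.129), Trim25 (0.50, 0.0556) and Xaf1 (0.41, 0.134) were not called. Ifit1 lost the call without LDLN Tconv 1 or 2 or PBMC Tconv 1 or 3 (adjusted p from 0.0619 to 0.115), Oasl2 without LDLN Tconv 1 or 2 or PBMC Tconv 3 (adjusted p from 0.0538 to 0.0595), Trim25 without LDLN Tconv 1 or 2 or PBMC Tconv 1 (adjusted p from 0.0525 to 0.126) and Rtp4 without Spleen Tconv 2 (log2 difference 0.66, adjusted p = 0.0504). Oas1a and Samhd1 were lowest in LDLN in both cell types. For Samhd1 in Treg, spleen minus LDLN was 0.11 and not called (limma, adjusted p = 0.376).

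Pools of 1 group also differed among themselves, and some genes did so in step with the pool number, a pattern noticed after the values were seen. Oas2, Ifit1 and Ifit3 were highest in the library numbered 3 in all 8 groups, 7.5% of the list against 0.167% of all genes tested. Oasl2, Mx2 and Rtp4 were so in 7 of the 8 groups, which makes 6 of 40 at 7 or more (15%, 1.1% of all genes). Dhx58, Ifit2 and Usp18 were so in 6, for 9 of 40 at 6 or more (22.5%, 4.75% of all genes). In LDLN Ifit1 was 591, 564 and 1245 in Treg and 736, 654 and 1294 in Tconv. There 18 of 40 genes were highest in library 3 of both cell types (15.3% of all genes), and in liver 15 of 40 (15.8%). In PBMC and spleen the counts for library 3 were 5 (12.5% of the list, 11% of all genes) and 8 (20%, 16.7%), and in PBMC library 1 led with 10 (25%, 15.1%).

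The GTPases and the factors were led by library 1 more often than by library 3. Over the 56 GTPase gene and group combinations library 1 was highest in 35 (62.5%), library 2 in 16 and library 3 in 5 (8.93%), beside 34.7%, 32.6% and 32.6% of combinations over all genes. For the factors library 1 led in 18 of 32 (56.2%) and library 3 in 9 (28.1%). For the OAS family library 3 led in 24 of 40 combinations (60.0%), and for the antiviral effectors in 44 of 80 (55.0%). Irf1, Gbp4 and Gbp7 led in library 1 in 6 groups, 7.5% of the list against 3.94% of all genes. Spread between pools, as the root mean square SD of log2 values over the 8 groups, was 0.68 for Rsad2, 0.63 for Oas2 and 0.53 for Ifit3, and 0.09 for Samhd1 and Irf9. The labels do not say what pools of the same number share, and no test was made of the order.

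**Figure D5:**
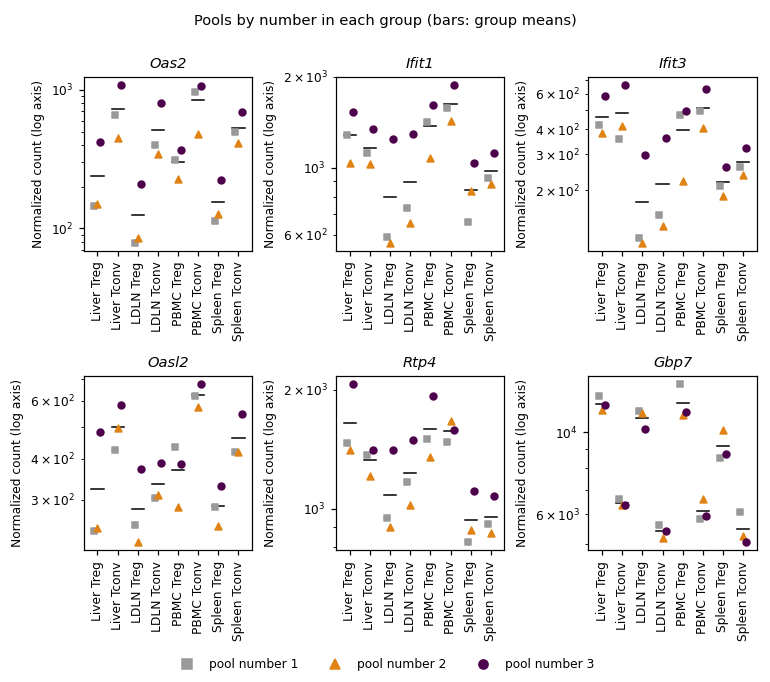
Normalized counts (log axis) of 6 genes in each of the 8 groups, with a symbol per pool number and bars at group means. The symbol of pool 3 is the highest in all 8 groups for Oas2, Ifit1 and Ifit3.

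A wider list of the pathway, 100 genes in the table with 85 tested, was read for the same contrasts. Its Treg against Tconv counts by tissue without the Foxp3-holding libraries stand beside the falls over all genes given above. In liver 22.4% of the 85 were called higher in Treg and 11.8% lower (19 and 10 genes, against 10.2% and 10.3% of all genes). In LDLN the shares were 18.8% and 8.24% (16 and 7, against 7.83% and 5.99%), and in PBMC 22.4% and 10.6% (19 and 9, against 10.2% and 7.95%). Spleen gave 20% and 14.1% (17 and 12, against 10.1% and 8.75%), and the mean of the tissues 36.5% and 24.7% (31 and 21, against 19.7% and 19.9%). Without the Foxp3-holding Tconv libraries 5 were higher and 6 lower in liver, where Liver Tconv 2 alone is left, 13 and 5 in LDLN, 21 and 6 in PBMC, 17 and 13 in spleen and 25 and 19 in the mean.

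Of 8 receptor chains and kinases tested, 6 rose in Treg and 2 fell in the mean of 4 tissues (75% and 25%, against 19.7% and 19.9% of all genes), and without the Foxp3-holding libraries 5 and 2. Ifngr1, the ligand-binding chain for interferon gamma, was 18319.5, 17891 and 15586 in liver, 6816, 6898 and 5601 in LDLN, 12547, 14007 and 12116 in PBMC and 15358, 16215 and 12038 in spleen in Treg. Tconv held 5497, 10883 and 8144 in liver, 2710.3, 2673 and 2918 in LDLN, 5112, 6672 and 4477 in PBMC and 8385, 10504 and 6902 in spleen. The mean log2 difference was 1.09 ± 0.10 (adjusted p = 5.03e-09). Ifngr2, its partner chain, went the other way (-0.81 ± 0.10, 5.36e-07). It was 623, 598 and 1077 in liver Treg against 1811, 1703 and 2366 in liver Tconv, and 1176, 842 and 987 against 1361, 1107 and 1357 in PBMC, where the pools overlapped. The type I chains Ifnar1 (0.70 ± 0.04, 1.71e-11) and Ifnar2 (0.56 ± 0.05, 1.59e-08) were higher in Treg and Jak1 lower (-0.42 ± 0.05, 6.73e-07), all 3 chosen for mention after their values were seen.

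By size in the mean of 4 tissues, the leading pathway genes were Cxcl10 (2.04 ± 0.28, 3.8e-06), Ifi208 (-1.97 ± 0.26, 1.71e-06), Ifitm2 (1.66 ± 0.32, 0.000192), Irf5 (1.54 ± 0.21, 4.5e-06), Tlr7 (1.37 ± 0.15, 9.97e-08) and Ifitm3 (1.16 ± 0.31, 0.00479). Cxcl10, a chemokine that attracts activated T cells, was 402, 277 and 221 in liver, 115, 109.7 and 69.5 in LDLN, 14.2, 18.2 and 21.5 in PBMC and 1047, 1174 and 407 in spleen in Treg. Tconv held 44.3, 91.2 and 54.8 in liver, 58.9, 39.8 and 8.03 in LDLN, 2.24, 5.27 and 4.09 in PBMC and 272, 269 and 78.3 in spleen. Treg exceeded Tconv in each tissue, and the lymphoid span was 5.41 log2 in Treg (adjusted p = 8.38e-07). Ifi208, of the family of interferon-inducible DNA-binding proteins, was lower in Treg, at 457, 398 and 1534 in liver, 361, 438 and 1477 in LDLN, 780.2, 578 and 1102 in PBMC and 239, 279.6 and 935 in spleen. Tconv held 2657, 1661 and 2932 in liver, 2215, 2150.3 and 2892 in LDLN, 2479, 2439.7 and 3187 in PBMC and 1888, 1708 and 2359 in spleen, and like Oas2 its highest library was number 3 in all 8 groups. Irf5 and Tlr7 are also expressed by B cells and macrophages: in Liver Tconv 2 Irf5 reached 835, beside 141 and 176 in the other liver Tconv pools. Summed macrophage markers were 2293 to 2736 in PBMC Treg against 363 to 655 in PBMC Tconv, and 2636 to 4834 in spleen Treg against 1066 to 1149 in spleen Tconv. Their part in these differences was not tested.

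Among 16 interferon genes in the table only Ifng and Ifnk passed the filter on low values. Ifng was 402, 737 and 295 in liver, 43.6, 30.9 and 45.7 in LDLN, 61.5, 14.1 and 19.5 in PBMC and 641, 675 and 421 in spleen in Treg. It was 569, 1443 and 556 in liver, 61.9, 70.3 and 14.05 in LDLN, 38.02, 73.8 and 32.7 in PBMC and 1286, 1107 and 352 in spleen in Tconv. Liver exceeded the lymphoid mean by 2.38 ± 0.48 log2 in Treg (adjusted p = 0.00139) and 2.75 ± 0.48 in Tconv (0.00194), and the spleen pools overlapped the liver pools. Ifng thus was low in LDLN and PBMC, where pools held 14.05 to 73.8, and its difference between the cell types was not called in any tissue.

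For liver against the lymphoid mean 17 of 85 pathway genes were higher in Treg and 10 lower (20% and 11.8%, against 9.66% and 10.1% of all genes), and 17 and 8 without the Foxp3-holding libraries. In Tconv 4 were higher and 0 lower (4.71%, against 2.58% and 0.598% of all genes), namely Ifng, Irf8, Ifngr1 and Epsti1. All 4 were highest among the liver Tconv pools in Liver Tconv 2. Without it and Spleen Treg 1 no pathway gene was called, with 0.716% of all genes called higher: adjusted p was 0.0579 for Ifng (log2 difference 2.30), 0.587 for Irf8 (0.51), 0.421 for Ifngr1 (0.42) and 0.381 for Epsti1 (0.43). Without the Foxp3-holding libraries, with Liver Tconv 2 the only liver Tconv pool, 12 were called.

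The F-test called 52 of 85 in Treg and 36 in Tconv (61.2% and 42.4%, against 38.8% and 27.4% of all genes). Without the Foxp3-holding libraries it called 52 and 30, for which the counts over all genes are not given. The interaction called 1 (1.18%, against 0.748% of all genes), Phf11b (0.48 ± 0.11, 0.0345). Without the Foxp3-holding libraries Phf11b was not called (0.40, adjusted p = 0.357) and 6 other pathway genes were, again with Liver Tconv 2 alone in its group.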

How the data were processed

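RNA was sequenced from 24 libraries of sorted T cells after SMARTer amplification, with no molecular identifiers named in the labels. The submitters' processing notes name Trimmomatic 0.32, TopHat2 2.0.11, Bowtie2 2.2.2, SAMtools 0.1.19, HTSeq 0.6.1p1 and GRCm38. The table the authors deposited holds a signal, normalized counts per Ensembl gene, that is reads divided by 1 size factor per library; whole reads were recovered from it for 100.0% of values (tolerance 0.01). Symbols came from GENCODE names (34645 IDs matched, 967 did not).

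Values were fitted as log2(value + 1) with limma 3.58.1 in R 4.3.3, in 1 model of 8 groups that let the variance follow the mean level (16 residual degrees of freedom). Genes needed at least 10 in at least 3 libraries (18576 genes), and p-values were adjusted by Benjamini-Hochberg with a threshold of 0.05. Differences are on the log2(value + 1) scale, which understates changes of low genes; ± is the standard error. The labels do not say whether pools share mice, so p-values measure the spread between these pools.

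The members and all lists were chosen with earlier results of these data known. Every member past the threshold is named, a set of central members is given by pool whatever the test, and pathway genes are named by size; 1 gene of the wider pathway list is not reported here. Same-numbered Treg and Tconv pools deviated together from their group means in liver (correlations 0.385, 0.188 and 0.102) and LDLN (0.122, 0.147 and 0.310). Each of these exceeded 0.1, so values with the number as a block are given there, at least where a call changes. The correlations were also positive in PBMC (0.252, 0.0822 and 0.134) and spleen (0.0707, 0.1365 and 0.416). Across tissues 29 of 72 pairs exceeded 0.1. Alternatives were other pseudocounts, filters, scaling, fits and left-out libraries, and edgeR 4.0.16 and DESeq2 1.42.0 on the whole reads, where edgeR called 3894 genes for liver, 2535 for LDLN, 3297 for PBMC and 3484 for spleen (limma 3808, 2568, 3377 and 3501). The limma fit was tested on simulated data. It missed the recovery first required for the smaller fold size, and that requirement was then dropped. A missed call therefore does not show that a gene is unchanged. The share of false calls in the simulated data was above the threshold. The threshold can thus understate how many calls are false, and calls just under it are to be read with caution.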

Additional observations from a re-analysis of the deposited data

How the results depend on the processing

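Of 128 calls of single members, 79 held under all alternatives and 49 were lost under at least 1. The calls of the F-test (27 in Treg and 16 in Tconv) have no direction that could change. None of the other calls changed direction under any alternative. Without the Foxp3-holding Tconv libraries, liver Treg against Tconv gave 5 members and 1371 genes, and liver against the lymphoid mean in Tconv 4 and 1350. Without Liver Tconv 2 and Spleen Treg 1, spleen gave 8 members, and the liver effect in Tconv 0 members and 148 genes. Fitting only the groups compared gave 2206 genes in PBMC and 288 for the liver effect in Tconv. The liver effect in Treg called 5 members and 3454 genes with no variance trend, beside 9 and 3662 in the main fit. In Tconv it called 2 members under quantile scaling and 2 by DESeq2, with 1137 genes by DESeq2 and 947 by edgeR.

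With the pool number as a replicate block over all tissues, the liver effect called 14 members in Treg and 3 in Tconv. All genes called for it went from 3662 to 4159 in Treg and from 590 to 790 in Tconv. The Treg against Tconv contrasts called 14 members in liver, 13 in LDLN, 15 in PBMC, 16 in spleen and 24 in the mean. All genes called for these contrasts were 4263, 2909, 3754, 3997 and 7648. With the block within tissue, 16, 18, 18, 16 and 26 were called, while all genes called went from 3808, 2568, 3377, 3501 and 7351 to 4505, 3072, 3899, 4217 and 7895. In PBMC and spleen, where the lowest correlation of same-numbered pools was 0.0822 and 0.0707, these are given as counts. Each library was also compared with the 3 libraries of the other cell type in its tissue. Among these, 19 of 24 libraries correlated best with the library of their own number, a hint from the data and not the design.

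The interaction called 1 member under quantile scaling and 1 by DESeq2. For all genes it called 139, and 250 under quantile scaling, 259 and 312 with the block over all tissues and within tissue, 254 and 277 without the Foxp3-holding and the marker-rich libraries, and 410.0 by DESeq2. Leaving out 1 library at a time gave 7 to 12 members in liver, 8 to 11 in spleen, 5 to 11 members and 2026 to 3819 genes for the liver effect in Treg, 0 to 5 and 137 to 1176 in Tconv, and 32 to 268 genes for the interaction. The 3 pools per group limit the precision of each difference, and intervals from counts alone would miss the spread between pools.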
